A study of Mus musculus with 42 samples.

Results

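Messenger RNA levels of 10 genes of the NF-kappaB pathway were followed in the liver: the 5 subunits of the transcription factor (Nfkb1, Nfkb2, Rela, Relb and Rel), the cytoplasmic IkB inhibitors Nfkbia and Nfkbie, the nuclear IkB proteins Nfkbiz and Bcl3, and the ubiquitin-editing enzyme Tnfaip3. They were taken by symbol from a table of 54446 genes, and all 10 were among the 15574 genes with enough counts to be tested. The mice were 42 females carrying the human APOE*3-Leiden transgene, which slows the clearance of lipoproteins, and each mouse gave 1 liver library. The Chow group (n = 10) stayed on maintenance chow as a healthy reference, and its age is not stated. The WTD group (n = 16) was 8 to 14 weeks old at the start and ate a Western-type diet with 15% cocoa butter, 40.5% sucrose and 1% cholesterol by weight, first for a run-in of 3 weeks and then for 32 weeks. For the last 10 weeks, from week 22, this diet also held 0.05% sodium cholate. The WTD+Atorvastatin group (n = 16) was also 8 to 14 weeks old at the start and received the same feeding. Atorvastatin, an inhibitor of cholesterol synthesis, was mixed into its diet at 3 mg per kg body weight per day from week 0. From week 5 the dose was 4.5 mg. All livers were taken at week 32. The groups therefore share sex and transgene, and the WTD-fed groups also share the age range at the start, cholesterol and cholate.

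NF-kappaB is a family of dimeric transcription factors that in resting cells are held in the cytoplasm by IkB proteins. Inflammatory receptors activate a kinase complex that marks the IkB proteins for destruction, and the freed dimers, mostly of Rela with the processed product of Nfkb1, enter the nucleus. A slower branch works through processing of the Nfkb2 precursor, which pairs with Relb. The pathway limits itself, since the genes of several inhibitors and subunits are switched on by NF-kappaB. In the liver, Kupffer cells, infiltrating macrophages, endothelium and hepatocytes all use it.

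Known self-regulation makes the promoters of these genes worth showing. RefSeq promoter windows (GRCm38.p6, 250 bases before to 50 bases after a transcription start) were at hand for 7 of the 10 genes, in 10 entries. A match to the 10-letter kappaB consensus, searched by its name on both strands, was present for 6 of the 7 genes and in 8 of the 10 entries, against 4.51% of 32851 promoters of the same length. The runs below are in 5′ to 3′ direction of the gene and end just before the transcription start, and capitals mark the consensus matches. They are shown for Rel, Nfkbia, Nfkbie and Tnfaip3, which changed with diet.
Rel, chr11:23770970-23771099, minus strand: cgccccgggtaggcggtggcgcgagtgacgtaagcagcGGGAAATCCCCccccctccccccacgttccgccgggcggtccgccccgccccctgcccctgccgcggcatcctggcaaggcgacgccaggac
Nfkbia, chr12:55492648-55492777, minus strand: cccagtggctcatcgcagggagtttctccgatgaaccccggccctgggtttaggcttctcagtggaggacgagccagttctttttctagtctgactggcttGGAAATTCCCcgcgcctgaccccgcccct
Nfkbie, chr17:45555570-45555699, plus strand: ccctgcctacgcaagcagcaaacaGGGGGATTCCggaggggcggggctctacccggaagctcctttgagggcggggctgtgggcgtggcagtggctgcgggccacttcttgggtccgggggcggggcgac
Tnfaip3, chr10:19015411-19015540, minus strand: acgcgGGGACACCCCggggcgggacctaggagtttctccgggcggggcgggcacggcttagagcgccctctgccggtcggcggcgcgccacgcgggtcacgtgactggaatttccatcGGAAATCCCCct
The nearest match lay 12 bases before the start of Tnfaip3, 29 bases before that of Nfkbia, 91 before that of Rel and 106 before that of Nfkbie. The run of Tnfaip3 ends at the start of a RefSeq entry but lies inside the GENCODE span of the gene. The 5′ end of that span is at position 19015657 of chromosome 10. For Nfkb2, only short windows around the matches of its most upstream entry are given, because this stretch lies in the first exon of a longer transcript. Its other entries also held matches, which are not shown. Their windows overlap, and a match that they share counts in each.
Nfkb2, chr19:46304690-46304716, plus strand: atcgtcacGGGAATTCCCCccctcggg
Nfkb2, chr19:46304718-46304736, plus strand: ggccgaaaGGGGCTTTCCc
Overlapping matches are joined in one block of capitals in Nfkb2 and Rel. The match of Bcl3 began 2 bases after its start, and the window of Rela held none. A match is a description of letters, and binding was not measured.

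Reads assigned to genes ranged from 15661381 to 36224054 per mouse, with a median of 19421089.5. In 8 libraries (3 Chow, 4 WTD and 1 WTD+Atorvastatin) over 20% of the genes at 1 to 2 CPM (counts scaled to the library total) in their group had no count at all. These libraries of low capture, with up to 59.0% of such genes missed, are uncertain for weakly expressed genes. Group differences that turn on them are given with and without them. WTD mouse 15, whose library missed 18.9% of the genes at 1 to 2 CPM, just under the cut of 20%, also stood apart. Its summed CPM of 9 macrophage markers was 1240, the lowest of the WTD group (median 2126), and its sum of 7 hepatocyte markers was 100443, the highest (median 63166). Hepatocyte markers were abundant in all mice, as the tissue label says.

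The Western-type diet was set against chow to ask which of the 10 genes differ with the diet. Of the 10 genes, 8 were higher in WTD-fed than in chow-fed livers at an adjusted p under 0.01, and none was lower. Among all tested genes, 17.5% were called higher, 16% lower and 33.5% in either direction. The median log2 fold change of the 10 was 0.85, beside 0.03 over all tested genes. Tnfaip3 rose most, 8.71-fold, then Relb (3.81-fold), Nfkbie (2.49-fold), Nfkb2 (2.25-fold) and Rel (2.14-fold). Relb and Rel did not overlap between the groups, that is 2 of the 10, while 3.4% of all tested genes lay wholly higher. In bulk liver, more cells of a type and more RNA per cell cannot be told apart. P-values are edgeR quasi-likelihood values with Benjamini-Hochberg adjustment over all tested genes, and they weigh a group difference against the spread between mice.

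**Figure D1:**
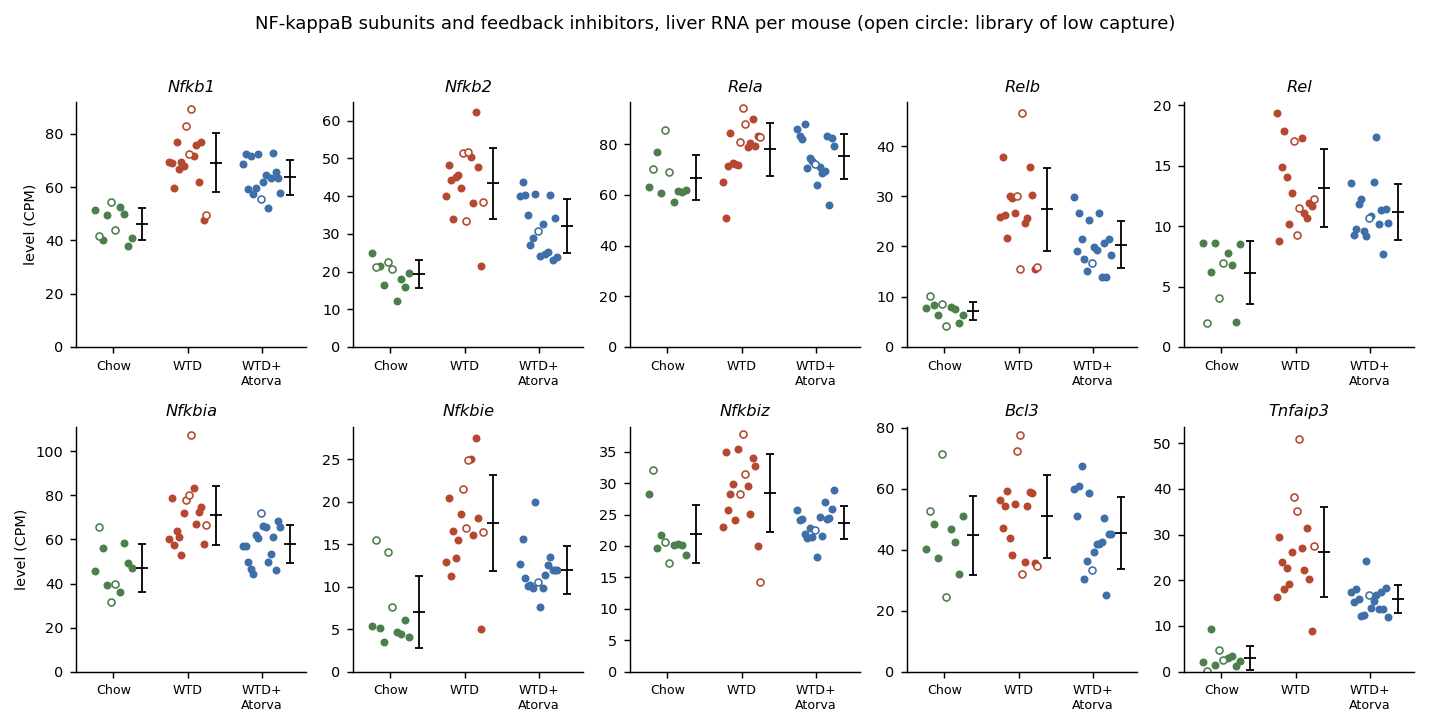
Level of each of the 10 genes in CPM (y axis, from 0) in every mouse of the Chow (n = 10), WTD (n = 16) and WTD+Atorvastatin (n = 16) groups, open circles are the 8 libraries of low capture, and bars give mean and SD. Relb and Rel show no overlap between Chow and WTD, while Bcl3 overlaps over most of its range.

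Among the subunits, Relb had the largest log2 fold change, and those of Nfkb2 and Rel were close to each other. Nfkb2, the precursor subunit, ranged in Chow from 12.3 to 24.9 CPM (median 20.2) and in WTD from 21.3 to 62.4 CPM (median 44.6). Of the 16 WTD-fed mice, 15 lay above the highest chow-fed mouse, and the exception was WTD mouse 15. The log2 fold change was 1.17 ± 0.13 (SE), with an adjusted p of 9.55e-11. Relb, the usual partner of Nfkb2, lay between 4.16 and 10.2 CPM in Chow (median 7.69) and between 15.6 and 46.6 CPM in WTD (median 26.5). Every WTD-fed mouse was above every chow-fed mouse, and the log2 fold change was 1.93 ± 0.16 (SE, adjusted p = 2.87e-14). The highest value belonged to WTD mouse 10, a library of low capture, and the log2 fold change without all 8 such libraries was 1.98.

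The other subunits were Nfkb1, Rela and Rel. Nfkb1, whose precursor is cut to the usual partner of Rela, lay between 38.0 and 54.4 CPM in Chow (median 46.6) and between 47.5 and 89.2 CPM in WTD (median 69.5). With 14 of 16 WTD-fed mice above the highest chow-fed mouse, its log2 fold change was 0.58 ± 0.083 (SE, adjusted p = 5.21e-08). Rela, the main activating subunit, lay between 57.2 and 85.8 CPM in Chow (median 62.6) and between 51.0 and 94.3 CPM in WTD (median 79.9). The groups overlapped widely, with only 3 WTD-fed mice above the chow range and 1, WTD mouse 2, below it. Its log2 fold change of 0.22 (95% interval 0.06 to 0.38) did not pass (adjusted p = 0.018). Leaving out Chow mouse 5, the highest of its group, moved it to 0.27 with an adjusted p of 0.0042, and leaving out WTD mouse 2 gave 0.26 with 0.0034. With all mice it was also called by DESeq2 (0.0054), with RLE scaling (0.0071), with at least 10 counts in every mouse (0.0038) and with the share of missed genes in the fit (0.0054). Rel, a subunit best known from lymphoid and myeloid cells, lay between 1.98 and 8.63 CPM in Chow (median 6.84) and between 8.76 and 19.4 CPM in WTD (median 12.1). The lowest WTD-fed mouse was just above the highest chow-fed mouse, and the log2 fold change was 1.10 ± 0.19 (SE, adjusted p = 3.45e-06).

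Both cytoplasmic inhibitors rose. Nfkbia, which encodes IkB-alpha and takes NF-kappaB back out of the nucleus, lay between 31.4 and 65.9 CPM in Chow (median 46.3) and between 52.9 and 107 CPM in WTD (median 69.6). Of the WTD-fed mice 10 were above the chow range and none below it, and the log2 fold change was 0.60 ± 0.10 (SE, adjusted p = 4.56e-06). Nfkbie, which encodes IkB-epsilon and is itself a target of NF-kappaB, lay between 3.51 and 15.5 CPM in Chow (median 5.29) and between 5.07 and 27.6 CPM in WTD (median 16.7). In Chow its 2 highest values, 15.5 and 14.1 CPM, came from libraries of low capture, and without those libraries no chow-fed mouse was above 6.09 CPM. The log2 fold change was 1.31 ± 0.21 (SE, adjusted p = 1.08e-06) with these libraries and 1.81 without them.

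The nuclear IkB proteins, which act as cofactors on DNA-bound dimers rather than as retainers, moved little. Nfkbiz, a cofactor for secondary response genes, lay between 17.3 and 32.1 CPM in Chow (median 20.3) and between 14.3 and 37.7 CPM in WTD (median 28.9). The ranges overlapped, 5 WTD-fed mice being above the chow range and 1 below it. The log2 fold change was 0.38 ± 0.11 (SE, adjusted p = 0.0054), and the call was lost when Chow mouse 3, 6, 7, 8, 9 or 10 or WTD mouse 7 was left out, with adjusted p values up to 0.014. Bcl3, a cofactor of dimers without an activation domain of their own, lay between 24.4 and 71.6 CPM in Chow (median 44.7) and between 32.2 and 77.6 CPM in WTD (median 54.5). The groups overlapped over most of the range, and the log2 fold change was 0.19 (95% interval -0.12 to 0.49, adjusted p = 0.33).

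Tnfaip3, which removes activating ubiquitin chains upstream of the kinase complex, showed the lowest level in Chow. Chow-fed mice lay between 0.064 and 9.27 CPM (median 2.38), which is 1 to 140 counts per library, and WTD-fed mice between 8.92 and 51.0 CPM (median 25.2). The ranges touched only through Chow mouse 3 at 9.27 CPM and WTD mouse 15 at 8.92 CPM. The log2 fold change was 3.12 ± 0.30 (SE, adjusted p = 8.09e-12). Only 1.64% of all tested genes had a higher log2 fold change. Without the libraries of low capture, which hold the lowest chow-fed mouse and the highest WTD-fed mouse, the fold fell from 8.71 to 6.92. Leaving out Chow mouse 3 alone raised the log2 fold change to 3.49.

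**Figure D2:**
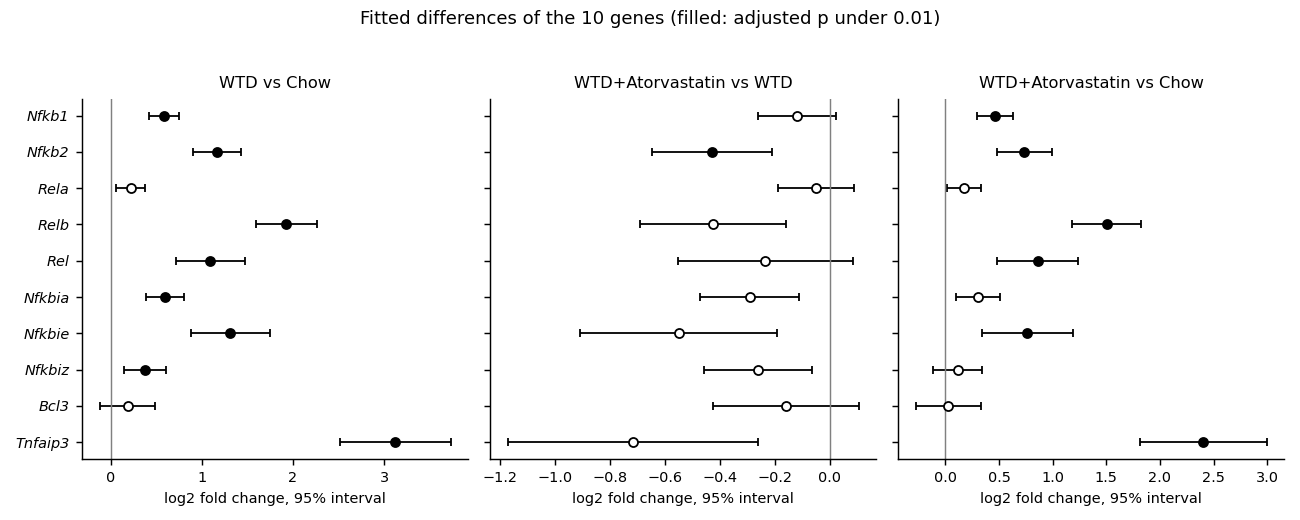
Log2 fold change of each gene (x axis) with its 95% interval in the 3 comparisons, filled circles have an adjusted p under 0.01. The values of WTD against Chow run from 0.19 for Bcl3 to 3.12 for Tnfaip3, and those of WTD+Atorvastatin against WTD from -0.72 for Tnfaip3 to -0.05 for Rela, with only Nfkb2 filled.

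WTD+Atorvastatin was compared with WTD to ask whether the statin alters these levels on the same diet. All 10 genes had a lower fitted level with atorvastatin, but only Nfkb2 passed the threshold, at a 25.8% lower level. Of all tested genes, 2.26% were called lower and 7.1% in either direction, while 49.8% had a negative log2 fold change. The median log2 fold change of the 10 genes was -0.28, beside 0.00 over all tested genes. For 6 of the 10 the 95% interval lay below 0, and 5 had an adjusted p under 0.05. None of the 10 separated the groups, and 0.00642% of all tested genes did. At the group sizes of 16, differences of this size stood near the threshold, and the call depended on single mice and on the test. DESeq2 called 4 of the 10 lower, limma-voom 5, and edgeR without the 8 libraries of low capture none. The number of genes called also changed with the test. Of all 15574 tested genes, the main fit called 352 lower, DESeq2 669 and limma-voom 1310. Without the libraries of low capture edgeR called 288 of 15877 lower.

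Nfkb2 lay between 23.2 and 43.6 CPM with atorvastatin (median 31.7), and all 16 mice were below the WTD median of 44.6 CPM. Its log2 fold change was -0.43 ± 0.11 (SE, adjusted p = 0.0043). The call was lost without WTD mouse 13, the highest of its group (-0.39, adjusted p = 0.011), and without the libraries of low capture (-0.42, adjusted p = 0.020). Leaving out WTD mouse 15, the lowest of its group, moved it to -0.48 with an adjusted p of 3.71e-04. Relb lay between 13.9 and 29.8 CPM (median 19.6), with 3 mice below the WTD range, and its log2 fold change of -0.43 ± 0.13 (SE) had an adjusted p of 0.022. It was called only when WTD mouse 15 was left out (adjusted p = 0.0075) and, with all mice, by DESeq2, limma-voom or a stricter filter on counts.

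For the other subunits the differences were small beside the spread. Nfkb1 with atorvastatin lay between 52.3 and 72.8 CPM (median 63.4), inside the WTD range, and the log2 fold change was -0.12 (95% interval -0.26 to 0.02, adjusted p = 0.32). Rela lay between 55.8 and 88.2 CPM (median 73.9) and differed by -0.05 (-0.19 to 0.09, adjusted p = 0.73), a sign that turned in limma-voom (0.011) and without the libraries of low capture (0.0082). Rel lay between 7.66 and 17.4 CPM (median 10.7), with 1 mouse below the WTD range, and differed by -0.24 (-0.56 to 0.08, adjusted p = 0.40). The interval of Rel includes the value of Nfkb2, and the differences between subunits were not tested.

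Of the inhibitors, Nfkbia lay between 44.3 and 71.9 CPM with atorvastatin (median 58.8). All but 1 of the 16 mice were below the WTD median, 5 were below the WTD range, and the log2 fold change was -0.29 ± 0.090 (SE, adjusted p = 0.022). Nfkbie lay between 7.56 and 20.0 CPM (median 11.6), also with 15 of 16 mice below the WTD median, and its log2 fold change was -0.55 ± 0.18 (SE, adjusted p = 0.030). Tnfaip3 lay between 11.9 and 24.1 CPM (median 15.8), and all 16 mice were below the WTD median of 25.2 CPM. Its log2 fold change of -0.72 ± 0.23 (SE, adjusted p = 0.027) had the largest size of the 10, and 5.25% of all tested genes had a lower value. Without the libraries of low capture the log2 fold change of Tnfaip3 was -0.48 with an adjusted p of 0.090. Leaving out only WTD mouse 10, one of these libraries and the highest of its group, gave -0.62 with an adjusted p of 0.058. Without all of them, Nfkbia differed by -0.23 (adjusted p = 0.052) and Nfkbie by -0.47 (adjusted p = 0.038). With all mice, Nfkbia was called by DESeq2 (0.0061), with RLE scaling (0.0091), with at least 10 counts in every mouse (0.0069) and in the fit of only both groups (0.0083). Nfkbie was called by limma-voom (3.16e-04) and in the fit of only both groups (0.0061). Tnfaip3 was called by DESeq2 (0.0061), by limma-voom (7.95e-06) and in the fit of only both groups (5.67e-04). Nfkbie and Tnfaip3 were both called when WTD mouse 15 was left out, with adjusted p values of 0.0056 and 0.0088, and Tnfaip3 also when Chow mouse 2 or 3 was left out (0.0050 and 0.0092). The chow-fed mice enter this comparison through the common estimate of spread, the scaling and the filter on genes.

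Nfkbiz lay between 18.2 and 28.9 CPM with atorvastatin (median 24.2), and all 16 mice were below the WTD median of 28.9 CPM. The log2 fold change was -0.26 ± 0.098 (SE, adjusted p = 0.070). Nfkbiz was called by limma-voom (adjusted p = 0.0087). Its spread between mice was narrower than in WTD, with an SD of 2.61 against 6.20 CPM. Bcl3 lay between 25.2 and 67.6 CPM (median 43.8) and differed by -0.16 (95% interval -0.42 to 0.11, adjusted p = 0.52).

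Against Chow, WTD+Atorvastatin livers were higher in 6 of the 10 genes, where 14.2% of all tested genes were called higher and 25% in either direction. This comparison shares its mice with both others, so its values stand beside theirs and are not separate evidence. Tnfaip3 was 5.30-fold higher (log2 fold change 2.41 ± 0.29, SE, adjusted p = 7.59e-09) and Relb 2.83-fold (adjusted p = 9.52e-11). In both of these genes every treated mouse was above every chow-fed mouse, as did 2.88% of all tested genes. Rel was 1.82-fold higher (adjusted p = 2.34e-04), Nfkbie 1.70-fold (0.0033), Nfkb2 1.67-fold (6.10e-06) and Nfkb1 1.38-fold (9.53e-06). Nfkbia was 1.23-fold higher (adjusted p = 0.018) and passed when Chow mouse 2 or 8 was left out (adjusted p = 0.0037 and 0.0098). With all mice it was also called by limma-voom (0.0099) and with the share of missed genes in the fit (0.0037). Rela (1.13-fold, adjusted p = 0.086), Nfkbiz (1.08-fold, 0.47) and Bcl3 (1.02-fold, 0.91) were not called. By limma-voom Rela was called (0.0066), and 8 of the 10 genes in all. Of all 15574 tested genes, limma-voom called 2814 higher and 2160 lower here, beside 2219 and 1674 in the main fit.

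**Figure D3:**
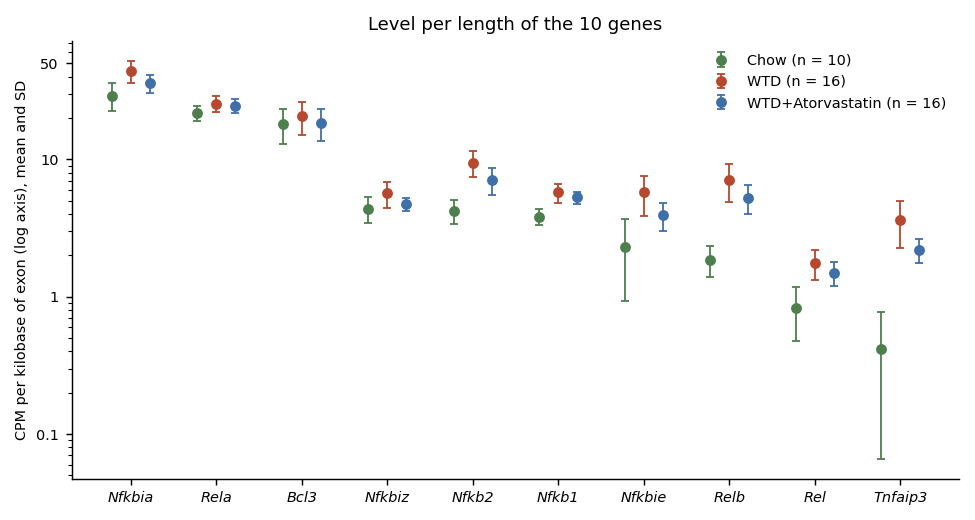
Level of each gene per kilobase of exon (y axis, log scale, mean and SD over mice) in the 3 groups, ordered by the level in Chow. Nfkbia is highest in each group, and Tnfaip3 is lowest in Chow while Rel is lowest in both WTD-fed groups.

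Levels of different genes were compared per length, as CPM per kilobase of exon. In Chow, Nfkbia led with 29.1 ± 6.71 (SD, n = 10), followed by Rela with 21.7 ± 2.88 and Bcl3 with 18.1 ± 5.21. Rela and Bcl3 did not differ beyond their spread. Nfkbiz (4.36 ± 0.92), Nfkb2 (4.21 ± 0.81) and Nfkb1 (3.83 ± 0.49) formed a middle group without separation between neighbours. Nfkbie (2.32 ± 1.39) and Relb (1.85 ± 0.47) were close to each other, and Rel (0.82 ± 0.35) and Tnfaip3 (0.42 ± 0.35) were lowest. In WTD, Nfkb2 (9.47 ± 2.05, n = 16) ranked next after Bcl3, beyond the spread of the next gene, Relb (7.05 ± 2.13). Relb, Nfkbie (5.75 ± 1.85), Nfkb1 (5.74 ± 0.90) and Nfkbiz (5.66 ± 1.24) followed without separation between neighbours. Tnfaip3 (3.61 ± 1.36) lay above Rel (1.76 ± 0.43). The place of Nfkb1 depends on the length used, since its exons span 12061 bases together but 4149 bases in the longest transcript, which gives 11.1 in Chow and 16.7 in WTD. The order within the middle group is therefore not firm.

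Ratios within a mouse free the comparison from library scaling. Relb to Rela per length was 0.0857 ± 0.0206 (SD) in Chow, with a highest value of 0.114, and 0.287 ± 0.110 in WTD, with a lowest value of 0.131. The groups did not overlap. With atorvastatin the ratio was 0.214 ± 0.0438, inside the WTD range. Nfkb2 to Nfkb1 was 1.12 ± 0.245 in Chow, 1.67 ± 0.378 in WTD and 1.32 ± 0.231 with atorvastatin, with overlap between neighbours. Its size depends on the length used, since with the longest transcripts Nfkb2 lay at 5.02 and Nfkb1 at 11.1 CPM per kilobase in Chow, and at 11.3 and 16.7 in WTD. Among inhibitors, Nfkbia to Rela was 1.36 ± 0.329, 1.76 ± 0.405 and 1.48 ± 0.265 in the same order, overlapping in all groups. Tnfaip3 to Nfkbia was 0.0151 ± 0.0116 in Chow, 0.0804 ± 0.0194 in WTD and 0.0621 ± 0.0135 with atorvastatin. These ratios are descriptions without a test.

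The rest of the pathway was read from 4 lists with 100 genes in all, 93 of them tested. Between WTD and Chow 43 of the 93 were higher and 5 lower, that is 51.6% called, where 33.5% of all tested genes were called, 17.5% higher and 16% lower. Of the receptors and ligands, 12 of 19 tested genes rose and none fell, with a list median log2 fold change of 1.34. Tnfrsf1b, a TNF receptor of immune and endothelial cells, rose from 32.3 ± 5.05 to 73.8 ± 7.37 CPM (log2 fold change 1.19 ± 0.080, SE, adjusted p = 7.25e-18). Cd14, the co-receptor for bacterial lipopolysaccharide and also one of the macrophage markers, rose from 5.52 ± 3.07 to 45.9 ± 8.95 CPM (3.05 ± 0.30, adjusted p = 2.71e-11). Of the upstream signalling genes, 8 of 29 rose and 3 fell, with a median of 0.08, and both the share called (37.9%) and the median were near those of all tested genes. Chuk, a catalytic subunit of the IkB kinase complex, fell from 128 ± 18.3 to 77.7 ± 12.7 CPM (-0.72 ± 0.081, adjusted p = 1.26e-10).

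Of the other inhibitors, 8 of 18 rose and 1 fell. Tnip1, which binds the Tnfaip3 protein, rose from 23.5 ± 3.54 to 47.9 ± 7.04 CPM (log2 fold change 1.03 ± 0.11, SE, adjusted p = 2.53e-11). Tnip3, a gene of the same family, was nearly absent in Chow, at 0.046 CPM, and reached 3.07 ± 1.92 CPM in WTD (adjusted p = 1.03e-06). Of the known target genes, 15 of 27 rose and 1 fell, with a median of 1.28. The adhesion molecules Icam1 (1.34 ± 0.12, adjusted p = 5.36e-14) and Vcam1 (1.81 ± 0.15, adjusted p = 3.13e-14) had the smallest p values. The gene that fell was Sod2, the mitochondrial superoxide dismutase (-0.71 ± 0.088, adjusted p = 1.99e-09). Of the 7 untested genes, Myd88, an adaptor that most cells use, was listed at 0 in all 42 mice, and this 0 may not reflect its expression.

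With atorvastatin 2 of the 93 genes were higher and 5 lower than in WTD, and 7.53% were called beside 7.1% of all tested genes, 4.84% being higher and 2.26% lower. The 2 higher genes were upstream: Chuk (0.33 ± 0.072, SE, adjusted p = 0.0012) and Tirap, an adaptor of Toll-like receptors (0.42 ± 0.097, adjusted p = 0.0020). Among the lower genes, Lcn2, an iron-sequestering acute phase protein, went from 356 ± 114 to 147 ± 126 CPM (log2 fold change -1.27 ± 0.29, adjusted p = 0.0018). Saa3, an acute phase serum amyloid gene, went from 25.9 ± 11.8 to 12.2 ± 4.82 CPM (-1.08 ± 0.20, adjusted p = 1.80e-04). Cd14 (-0.97 ± 0.23, adjusted p = 0.0027), Tnip1 (-0.40 ± 0.092, adjusted p = 0.0017) and Gadd45b, a stress response gene (-0.72 ± 0.18, adjusted p = 0.0046), were the others. Ltb, a lymphotoxin subunit that feeds the slower branch (-0.90 ± 0.26, adjusted p = 0.012), and the inhibitor Pdlim2 (-1.02 ± 0.33, adjusted p = 0.031) did not pass. Against Chow, 33 of the 93 were higher with atorvastatin and 3 lower, beside 10.7% of all tested genes called lower.

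**Figure D4:**
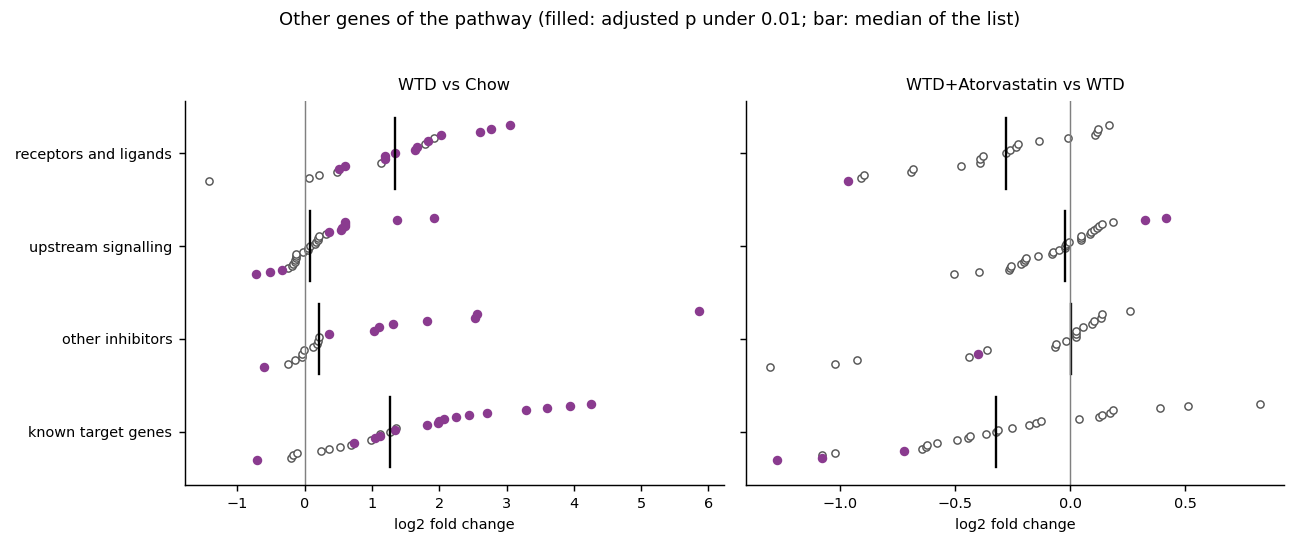
Log2 fold change (x axis) of the tested genes of 4 lists, 93 in all, in WTD against Chow and in WTD+Atorvastatin against WTD, filled points have an adjusted p under 0.01 and bars give list medians. Receptors and ligands (median 1.34) and known targets (1.28) lie to the right in the first comparison, while upstream signalling genes centre near 0 (0.08).

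Markers of other cell types moved with the same groups. All 8 tested macrophage markers rose on WTD and 4 of them, Cd68, Lyz2, Mpeg1 and Cd14, fell with atorvastatin. Their summed level was 252 to 375 CPM in Chow (median 341), 1240 to 2659 in WTD (median 2126) and 993 to 1897 with atorvastatin (median 1250). Itgam of that list, a gene of myeloid cells, was listed at 0 in all mice, which again may not reflect expression. Of 5 Kupffer cell markers 2 rose on WTD, of 5 monocyte markers 3, and of 5 cholangiocyte markers 5. Of 3 tested neutrophil markers 2 rose, of 6 stellate cell markers 3, and of 5 B cell markers 1. Sinusoidal endothelium had 1 marker higher and 2 lower of 6, and none of 6 T cell markers was called. With atorvastatin against WTD, the Kupffer cell list had 1 marker higher and 1 lower, stellate cells 1 higher and 2 lower, and endothelium 2 higher. Monocytes and cholangiocytes had 1 lower each, and no marker of neutrophils, T cells or B cells was called. All 7 hepatocyte markers fell on WTD, and 5 of them rose with atorvastatin. Their sums were 103566 to 152066 CPM in Chow, 48844.6 to 100443 in WTD and 57664.8 to 122595 with atorvastatin. The part of cell composition in the changes of the 10 genes was not tested.

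Whether the 10 genes follow the macrophage marker level from mouse to mouse was examined within each group, in 30 relations with a two-sided permutation test on log2 CPM. After adjustment over the 30, 7 passed 0.05, of which 4 were with atorvastatin, 3 in WTD and none in Chow. The median r was 0.53 with atorvastatin, 0.53 in WTD and -0.23 in Chow. Neither the count nor the median r was worked out for all tested genes, so they do not set the 10 genes apart. Without the libraries of low capture the median in Chow was 0.21 and in WTD 0.71, and 10 of the 30 relations passed. With atorvastatin, Rela had r = 0.81 and rho = 0.91 (permutation test, n = 16, adjusted p = 0.0030 and 3.0e-04), and without the 2 mice farthest from the median marker level r was 0.82. Nfkb2 had r = 0.80 and rho = 0.81 there (adjusted p = 0.0030 and 0.0028, permutation test, r = 0.75 without the 2 mice), and Bcl3 r = 0.71 and rho = 0.81 (adjusted p = 0.016 and 0.0034, permutation test, 0.71). Nfkb1 had r = 0.63 and rho = 0.54 (adjusted p = 0.042 and 0.13, permutation test, 0.55). Rela and Bcl3 thus varied with the marker level inside this group although neither was called between groups in the main fit. Bcl3 had r = 0.15 and rho = -0.04 in WTD (adjusted p = 0.63 and 0.90, permutation test). In Chow its r was -0.21 and its rho -0.28 (adjusted p = 0.63 and 0.59, permutation test).

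In WTD, 3 relations passed by r and another by rho. Nfkbia had r = 0.57 and rho = 0.71 (adjusted p = 0.077 and 0.022, permutation test), and r was 0.60 without the 2 farthest mice. Nfkbie had r = 0.81 and rho = 0.59 (adjusted p = 0.016 and 0.10, permutation test), falling to 0.52 without the 2 farthest mice. Tnfaip3 had r = 0.73 and rho = 0.53 (adjusted p = 0.021 and 0.13, permutation test), falling to 0.45, and Nfkb2 r = 0.71 and rho = 0.43 (adjusted p = 0.042 and 0.22, permutation test), falling to 0.27. WTD mouse 15, with the lowest marker level, was the lowest of its group in Nfkbie, Tnfaip3 and Nfkb2. Rela in WTD had r = -0.27 and rho = -0.21 (adjusted p = 0.38 and 0.59, permutation test, 0.23 without the 2 mice). The difference in r between the groups was not tested. When Kupffer cell markers were added to the list, none of the 30 relations passed.

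**Figure D5:**
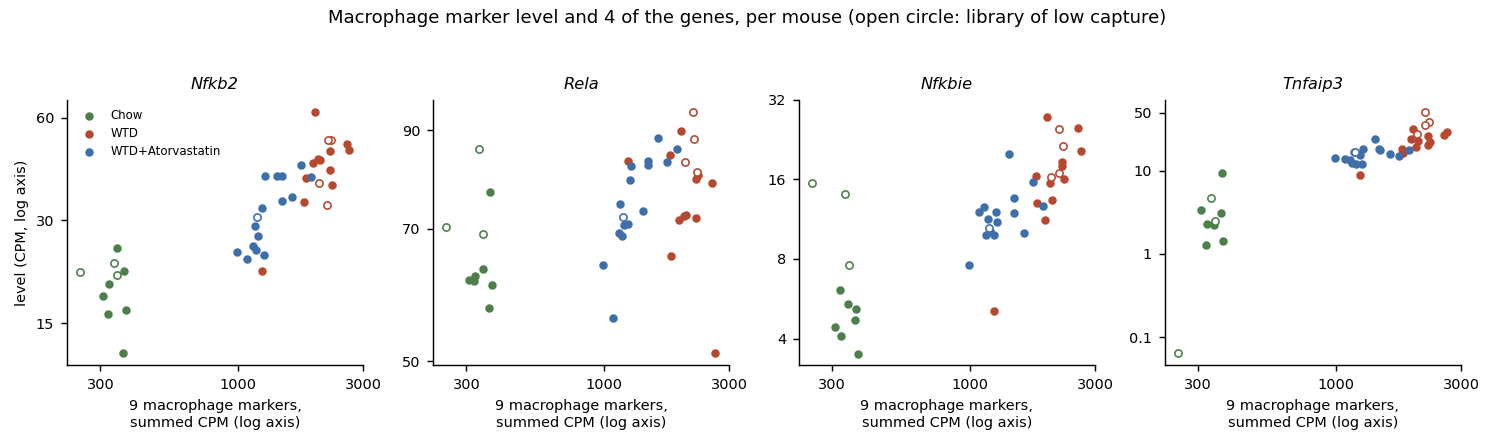
Level of Nfkb2, Rela, Nfkbie and Tnfaip3 (y axis, CPM, log scale) against the summed level of 9 macrophage markers (x axis, CPM, log scale) in each mouse, open circles are libraries of low capture. The chow-fed mice lie at 252 to 375 CPM of markers, apart from all WTD-fed mice at 993 or more, and WTD mouse 15 at 1240 sits among the treated mice.

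The mice at the edges of a group were often the same ones. In WTD, mouse 10 was the highest for Nfkb1, Relb, Nfkbia and Tnfaip3, and mouse 15 the lowest for Nfkb1, Nfkb2, Nfkbie and Tnfaip3. Mouse 10 missed 46.2% of the weakly expressed genes. Its macrophage marker sum of 2198 CPM was close to the group median. In Chow, mouse 2, which missed 59.0%, was the highest for Relb, Nfkbia, Nfkbie and Nfkbiz and the lowest for Rel and Tnfaip3. With atorvastatin, mouse 14 was the lowest for Nfkb2, Rela, Rel and Bcl3, and its hepatocyte marker sum of 122595 CPM was the highest of that group. Over the 45 pairs of the 10 genes, the median r between mice was 0.17 in Chow, 0.33 in WTD and 0.23 with atorvastatin. After adjustment over all 135 pairs and groups, 1, 4 and 6 pairs passed 0.05 by a permutation test of Pearson's r. Of these, 1, 4 and 4 also passed by Spearman's rho. Pairs of other genes were not examined, so these counts have no background.

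In WTD 4 pairs passed. Nfkb2 and Nfkbie had r = 0.84 and rho = 0.71 (adjusted p = 0.018 and 0.038, permutation test, n = 16), falling to 0.48 without the 2 mice farthest in Nfkb2. Nfkbie and Tnfaip3 had r = 0.82 and rho = 0.73 (adjusted p = 0.018 and 0.032, permutation test, 0.64), and Nfkb2 and Relb r = 0.79 and rho = 0.83 (adjusted p = 0.010 and 0.0081, permutation test, 0.78). Nfkbia and Tnfaip3 had r = 0.77 and rho = 0.76 (adjusted p = 0.026 and 0.032, permutation test, 0.70). With atorvastatin, Rela and Bcl3 led, with r = 0.80 and rho = 0.79 (adjusted p = 0.010 and 0.021, permutation test, n = 16, 0.63). In Chow only Relb and Bcl3 passed, with r = 0.84 and rho = 0.85 (adjusted p = 0.038 and 0.040, permutation test, n = 10), falling to 0.51 without the 2 mice farthest in Relb and to 0.72 without the libraries of low capture. These mice share libraries, depth and cell makeup across genes.

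For each gene, the 2 genes whose log2 CPM followed it most closely over the 42 mice, after each group's mean was subtracted, were taken from 10787 genes with a mean of at least 5 CPM. The r values ran from 0.61 to 0.85 and are descriptions only. They were not recalculated without the libraries of low capture. Among these libraries, Chow mouse 2 held 1 count of Tnfaip3. Tnfaip3 was nearest to Trim47 (0.85) and Sap30 (0.84), and Nfkb2 to Mmp14, a membrane-bound matrix metalloproteinase (0.76), and Uap1l1 (0.74). Relb was nearest to Cebpd, a transcription factor of the acute phase (0.67), and Homer3 (0.66). Rela was nearest to the unconventional myosins Myo9b (0.68) and Myo1c (0.65), and Bcl3 to Amdhd2 (0.74) and Iqgap1 (0.69), a scaffold of the cell cortex. Nfkbie was nearest to Tmsb10, an actin-binding peptide (0.72), and Cygb, a globin of stellate cells (0.70). Nfkbia followed Cblb (0.64) and Pcbp4 (0.61), Nfkb1 followed Tspyl2 (0.66) and Cnn2 (0.63), Rel followed Brcc3 (0.68) and Pwwp2b (0.67), and Nfkbiz followed Htra3 (0.66) and Sra1 (0.65). None of these 20 genes was one of the 10. Of the 20, 14 were called higher and 1 lower in WTD than in Chow, where 17.5% and 16% of all tested genes were. With atorvastatin 7 were called lower, where 2.26% of all tested genes were. These shares also cover genes under 5 CPM. The 20 were picked for following the 10 genes in these same mice, so their calls are not separate evidence.

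Some counts carry a further limit. Exons of Nfkb2 share 830 bases with genes on the opposite strand, AC114539.1 and Psd, and those of Bcl3 share 161 bases with Gm16175, while the other 8 genes share none. The libraries kept strand, but the strand setting of the counting is not given in the sources used here. The read overlap with these neighbours was not tested. The genes lie on chromosomes 3 (Nfkb1), 19 (Nfkb2 and Rela), 7 (Relb and Bcl3), 11 (Rel), 12 (Nfkbia), 17 (Nfkbie), 16 (Nfkbiz) and 10 (Tnfaip3) of GRCm38.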

How the data were processed

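Liver RNA was sequenced as strand-specific paired reads from 42 mice. The authors trimmed reads with Trimmomatic, aligned them to GRCm38 with STAR and counted them with HTSeq 0.6.1p1 on GENCODE genes, and they used DESeq2 with an adjusted p under 0.01 as threshold. The deposited values are whole-number counts per gene without normalization. Lines for unassigned reads (2.28% in no gene, 5.95% ambiguous, 4.68% aligned to several places on average) were left out.

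Here filterByExpr removed genes with few counts (minimum count 10 in enough mice, 15 over all mice). After TMM scaling, edgeR 4.0.16 (R 4.3.3, limma 3.58.1) gave quasi-likelihood tests from 1 robust fit of all 42 mice in 3 groups without covariates. Adjusted p values under 0.01 were called. The threshold was that of the study's methods. CPM use TMM-scaled totals, and log2 CPM a prior count of 2. Standard errors and 95% intervals come from the quasi-likelihood F statistic. Gene lengths and positions came from GENCODE vM21 (54409 of 54446 identifiers matched). Correlations used 100000 permutations, for which 1e-05 is the smallest p. The methods were tested on simulated data.

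The 10 genes, the lists and the tests were chosen with earlier results of these data known. Every one of the 10 genes is named. Of each list, the 2 genes with the smallest p between WTD and Chow and the 2 between WTD+Atorvastatin and WTD are named, and Sod2, Gadd45b and Myd88 were named after their values were seen, as were the 4 fallen macrophage markers. For each of the 10, the 2 genes with the highest correlation are named. One gene that this rule picks is not reported here. Pairs of the 10 genes were added after seeing the data. Alternatives covered DESeq2 1.42.0, limma-voom weighted by sample quality, other scalings (RLE, upper quartile), other filters, samples and thresholds, and leaving out each mouse. Figures were made with matplotlib 3.10.9 in Python 3.11.15.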

Additional observations from a re-analysis of the deposited data

Results flagged for a closer look

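Tnfaip3 in the Chow group was flagged because its highest mouse, Chow mouse 3 at 9.27 CPM, lay far from the next at 4.70 CPM. The gap was 0.50 of the whole range of the group, above the critical value of 0.466 for 10 mice. The 10 chow-fed groups of values, 1 per gene, were examined in this way, and chance flags about 1 in 20. Without this mouse the log2 fold change of Tnfaip3 between WTD and Chow was 3.49 in place of 3.12, and its adjusted p stayed under 0.01.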

How the results depend on the processing

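The 8 genes higher on WTD became 5 when a log2 fold change of at least 1 was also asked for, the 6 higher with atorvastatin than in Chow became 2, and the 1 lower with atorvastatin than in WTD became 0. That last count of 1 also moved to 4 with DESeq2, 5 with limma-voom, 2 with RLE scaling, 3 with at least 10 counts in every mouse (where Tnfaip3 was not tested), 4 with only both groups in the fit, 0 without the libraries of low capture and 5 at an adjusted p under 0.05. Of all 15574 tested genes, 352 were called lower in the main fit, 669 with DESeq2, 1310 with limma-voom and 479 with RLE scaling. With at least 10 counts in every mouse 515 of 9973 were, and with only both groups 642 of 14595. Without the libraries of low capture 288 of 15877 were. In the 42 fits without 1 mouse the counts of the 10 genes in the 3 comparisons ranged from 7 to 9, 0 to 4 and 6 to 7. Of the listed pathway genes, 48, 7 and 36 were called (WTD against Chow, atorvastatin against WTD, atorvastatin against Chow). With at least 10 counts in every mouse these were 28 in the first and 18 in the third, where fewer genes were tested. The count of 7 became 13 with DESeq2, 24 with limma-voom, 16 with only both groups in the fit, 15 at an adjusted p under 0.05 and 2 with the fold threshold, which gave 23 in the third. Among all tested genes in that comparison of atorvastatin against WTD, the main fit called 754 higher and 352 lower. DESeq2 called 694 and 669, limma-voom 1835 and 1310, and the fit of only both groups 719 and 642. All-gene counts at the 0.05 and fold thresholds are not given here. Without 1 mouse the counts of listed genes ranged from 44 to 51, 6 to 11 and 34 to 39. The 7 relations with macrophage markers became 4 with Spearman's rho, 3 without the 2 farthest mice and 0 with Kupffer cell markers joined. Signs turned in 9 of 1647 alternative values of the 10 genes: Rela, atorvastatin against WTD, in limma-voom (0.011), without the libraries of low capture (0.0082) and with each library's share of missed genes fitted (0.0050), and Bcl3, atorvastatin against Chow, without Chow mouse 6 (-0.042) or 9 (-0.017) or atorvastatin mouse 1 (-0.0024), 3 (-0.0048), 4 (-0.019) or 7 (-9.17e-04), within a range of -0.042 to 0.128 without 1 mouse. Of the rest, 1585 kept direction and side, 35 gained and 18 lost the call. The cause was not tested. Levels per length of Nfkb1, Nfkb2, Rela, Nfkbiz and Bcl3 moved in 11 cases with the longest transcript as length. No paired analysis was possible because the mice are unpaired and replicate numbers only name them.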
